A study of Mus musculus with 2 samples.

Results

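Among the CD133+ non-traced cells of mouse spinal cord, 722 of 25411 droplets (2.84%, 95% exact binomial interval 2.64 to 3.05) carried transcripts of ependymal cells and of vessel endothelium in the same droplet. They were chosen by their counts. A droplet had to hold a unique molecular identifier (UMI, a tag that marks 1 captured RNA molecule) of at least 5 of 10 ependymal genes (Ccdc153, Fam183b, Tmem212, Foxj1, Rsph1, Dynlrb2, Pifo, Tmem107, Mia and Fam216b), and 8 endothelial genes (Cldn5, Flt1, Pecam1, Ly6c1, Slco1a4, Itm2a, Cdh5 and Ly6a) had to make up at least 0.5% of its UMIs. These 722 are called droplets with both profiles below. In the same library, 1179 droplets met the ependymal criterion with a lower endothelial share (ependymal-only), and 22973 met the endothelial criterion with at most 1 of the 10 ependymal genes (endothelial-only). The remaining 537 droplets entered no comparison.

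The study asked how spinal cord cells with a history of DNGR-1 expression differ from the other cells of the same sort. Both of its libraries came from adult C57BL/6j mice, 10 to 12 weeks old, of genotype Clec9acre/creR26LSLtdTomato/LSLtdTomato: Cre is made from the Clec9a locus, which encodes DNGR-1, and a cell in which Cre was once active, with its descendants, makes tdTomato. Cells were dissociated, depleted of myelin and sorted as live, CD45- and CD133+, then split into traced (4825 droplets) and non-traced (25411 droplets) cells. How many mice each library pooled is not given in the sources used here. Each group was 1 library, so no test between conditions could be made, and all intervals below cover counting error only. The non-traced library held 233318692 UMIs, with 1011 to 70509 per droplet and a median of 7218. The traced library held 46530507 UMIs, with a median of 8566. The libraries shared 42 barcode sequences, 1 of them that of a droplet with both profiles.

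Ependymal cells line the central canal of the spinal cord and move cerebrospinal fluid with motile cilia, which are built from axonemal dyneins, radial spokes and assembly factors under the control of Foxj1. In the embryo the neural tube is patterned from dorsal to ventral by transcription factors, and ependymal cells keep parts of this code. Endothelial cells of the central nervous system form the blood-brain barrier, with tight junctions and transporters, and change gene by gene along the vessel from artery through capillary to vein. CD133 is encoded by Prom1.

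The genes that define the label were present on both sides, as the rule requires. Levels are given in CPM, the UMIs of a gene summed over the droplets of a class per 1000000 UMIs of that class. Ccdc153, a cilia protein gene (GRCm38, chromosome 9, 44240676 to 44247306), was at 662 CPM (95% Poisson interval 647 to 678) in droplets with both profiles, against 1534 in ependymal-only and 1.40 in endothelial-only droplets. Foxj1, the master regulator of motile cilia (chromosome 11, 116330704 to 116335399), was at 252 CPM (242 to 261), against 506 and 0.914. Rsph1, a radial spoke component (chromosome 17, 31255019 to 31277383), was at 455 CPM (442 to 467), against 1119 and 1.105. All 3 thus lay between the classes, nearer to the ependymal one on a log scale. Cldn5, the tight junction protein of brain endothelium (chromosome 16, 18776847 to 18778262), was at 4057 CPM (4019 to 4094), against 107 in ependymal-only and 7416 in endothelial-only droplets. Flt1, a receptor for VEGF (chromosome 5, 147561604 to 147726011), was at 2124 CPM (2097 to 2152), against 69.1 and 3856. Ly6c1, a surface protein of endothelium (chromosome 15, 75044018 to 75048830), was at 2600 CPM (2570 to 2630), against 89.3 and 4643. These values describe the selection and support nothing.

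Few droplets lay near the limits of the rule. Of the 1901 droplets with 5 or more ependymal genes, 8 had an endothelial share between 0.4% and 0.5% and 9 one between 0.5% and 0.6%, while 1111 were below 0.1% and 586 at 1% or more. Of the droplets at 0.5% or more, 12 held 4 ependymal genes and 14 held 5, while 439 held all 10. The median endothelial share was 1.41% in droplets with both profiles, 0.0409% in ependymal-only and 2.79% in endothelial-only droplets.

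**Figure D1:**
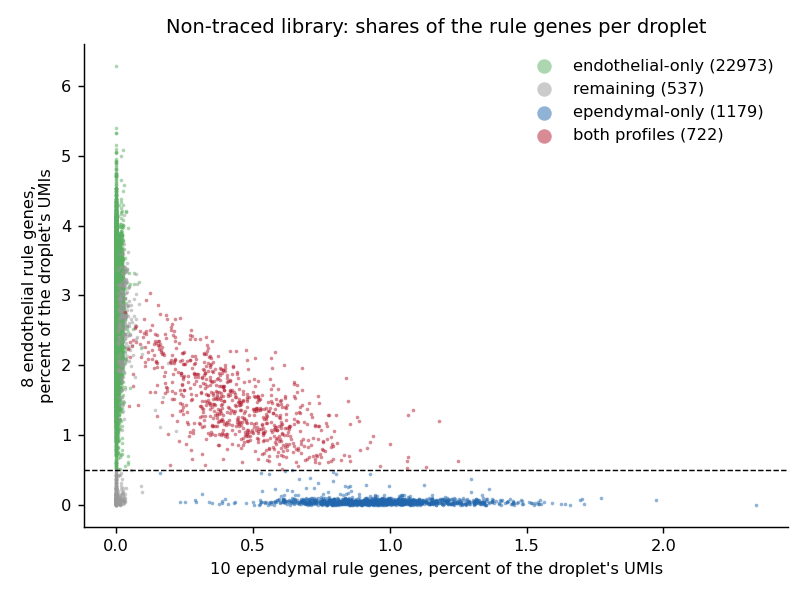
Each point is 1 droplet of the non-traced library; the x axis gives the 10 ependymal genes and the y axis the 8 endothelial genes of the rule, both in percent of the droplet's UMIs, and the dashed line marks 0.5%. The 722 droplets with both profiles form a band between the endothelial-only points along the y axis and the ependymal-only points along the x axis.

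Droplets with both profiles made up 38.0% (35.8 to 40.2) of the non-traced droplets that met the ependymal criterion. In the traced library the same rule found 5 of 4750 (0.105%, 0.0342 to 0.245). The number of endothelial-only droplets differed likewise, 22973 in the non-traced and 58 in the traced library. The traced droplets with both profiles held 10968, 12220, 15065, 20479 and 24093 UMIs.

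Droplets with both profiles held more RNA than either other class. Their UMIs ranged from 1361 to 70509 with a median of 14057, against medians of 7093 in ependymal-only and 7136 in endothelial-only droplets, a quotient of 1.98 and 1.97. The sum of the 2 single medians is 14229. By means, 15263 UMIs per droplet were 91.7% of the sum of the other classes' means, 16649. Detected genes had a median of 4702, against 2962 and 2799. Among the 722, 377 (52.2%) held more UMIs than the 95th percentile of ependymal-only droplets, and 64 (8.86%) held fewer than the ependymal-only median. Mitochondrial transcripts took a median of 4.22% of UMIs, between 5.80% in ependymal-only and 3.37% in endothelial-only droplets.

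Each profile was present at about the amount found in a droplet that carried it alone. The ependymal side was read from 39 cilia genes outside the rule, among them the dyneins Dnah5, Dnah6 and Dnah9, the axonemal proteins Hydin and Spag17 and the transcription factors Rfx2 and Rfx3. Their UMIs per droplet had a median of 67.5, against 71 in ependymal-only and 0 in endothelial-only droplets. The endothelial side was read from 19 genes, among them Egfl7, Tie1, Tek, Ramp2, Erg and Kdr. Their UMIs had a median of 93, against 98 in endothelial-only and 5 in ependymal-only droplets. Per droplet, the mean cilia content was 0.931 (0.921 to 0.941) of that of ependymal-only droplets, and the mean endothelial content 0.965 (0.958 to 0.972) of that of endothelial-only droplets. As a share of all RNA, both were lower: in CPM the cilia list was at 46.1% (45.6 to 46.6) of its ependymal-only level and the endothelial list at 57.6% (57.1 to 58.0) of its endothelial-only level. The percentages sum to 103.6.

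**Figure D2:**
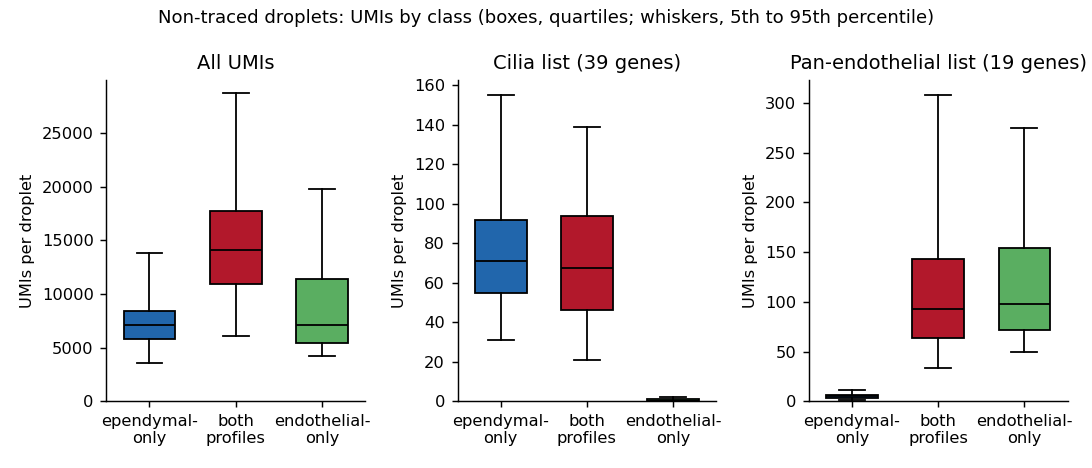
UMIs per droplet in ependymal-only (1179), both-profile (722) and endothelial-only (22973) droplets for all genes, the 39-gene cilia list and the 19-gene pan-endothelial list; boxes span the quartiles with the median, whiskers the 5th to 95th percentile. Total UMIs are highest in droplets with both profiles, whose cilia median (67.5) lies near that of ependymal-only droplets (71) and whose endothelial median (93) near that of endothelial-only droplets (98).

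The balance of the profiles varied between droplets. The ependymal percentage (a droplet's cilia CPM relative to the ependymal-only level) had a median of 48.5%, with 5th and 95th percentiles of 16.6% and 83.6%, and the endothelial percentage one of 51.6%, with 26.5% and 90.8%. The sum of both had a median of 102%, with 81.0% and 125% at the same percentiles. In 611 droplets (84.6%) the endothelial part was between 25% and 75% of this sum. In 84 it was over 75%, with a median of 22316 UMIs, and in 27 under 25%, with a median of 15817 UMIs. The endothelial percentage was the higher one in 383 of 722 droplets (53.0%). Over the 722 droplets, cilia and pan-endothelial UMIs had a Spearman correlation of 0.169. Total UMIs had one of 0.806 with pan-endothelial and of 0.546 with cilia UMIs, and all 3 are parts of the same droplet total.

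Across the transcriptome the droplets with both profiles stood between the other classes. Of 4872 genes outside the rule that reached 50 CPM in at least 1 class, 4503 (92.4%) had a level strictly between the ependymal-only and the endothelial-only level. This held for all 1602 genes whose levels in those classes were 4-fold or more apart, 883 of them higher in ependymal-only and 719 higher in endothelial-only droplets. No gene (0%) was above both classes by 1.5-fold, and 1 gene (0.0205%) was below both by that much, Rn18s-rs5, a ribosomal RNA repeat with near-identical copies whose count is uncertain. With 1 library, no test was possible for these counts.

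In molecules per droplet the genes followed the sum of both classes. For 4813 of the 4872 genes (98.8%), the mean UMIs per droplet were within 1.25-fold of the ependymal-only mean plus the endothelial-only mean. The median quotient was 0.931, with 5th and 95th percentiles of 0.849 and 1.03, and the SD over genes was 0.107 on the log2 scale. The median was 0.927 for the 883 ependymal genes and 0.926 for the 719 endothelial genes. The cilia list had 38 of 38 tested genes within 1.25-fold of the sum, with Enkur at 0.805, Ak7 at 0.950, Tppp3 at 0.8999 and Mlf1 at 0.833. The pan-endothelial list had 20 of 20, with Egfl7 at 0.944, Ramp2 at 0.984, the drug efflux pump Abcb1a at 0.918 and the glucose transporter Slc2a1 at 0.906. Both lists were thus near the share over all tested genes.

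**Figure D3:**
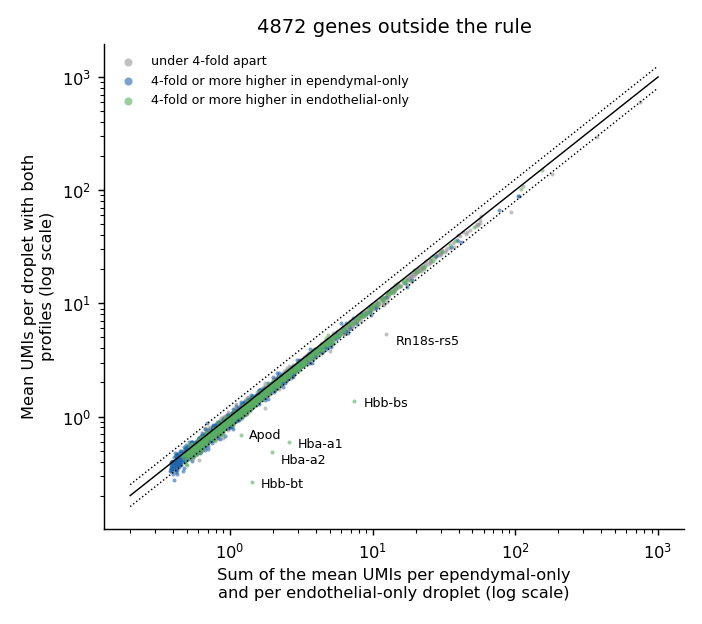
Each point is 1 of 4872 genes; the x axis gives the sum of its mean UMIs per ependymal-only and per endothelial-only droplet, the y axis its mean UMIs per droplet with both profiles, both on log scales, with the line of equality and dotted lines at 1.25-fold. Of the 4872 genes 4813 lie within the dotted lines, and the hemoglobin genes, Rn18s-rs5 and Apod lie below them.

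The genes farthest from the sum were few. Hbb-bs was at 0.182 of the sum, Hbb-bt at 0.184, Hba-a1 at 0.229 and Hba-a2 at 0.248; these are the globins of red blood cells. In droplets with both profiles Hbb-bs had 1.36 UMIs per droplet, against 7.33 in endothelial-only and 0.126 in ependymal-only droplets. The globin means rest on few droplets. Hemoglobin UMIs numbered 100 or more in 4 of 722 droplets with both profiles and 85 of 22973 endothelial-only droplets, with medians of 0. Rn18s-rs5 was at 0.426, and Apod, an apolipoprotein, at 0.566. Above the sum, Srcin1 was at 1.29, S100a6 at 1.18, Fam184a at 1.17, Tagln at 1.17 and Sox21, a SoxB transcription factor, at 1.16. Srcin1 had a level of 57.8 CPM in droplets with both profiles, 89.9 in ependymal-only and 0.880 in endothelial-only droplets.

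The 10 genes farthest above the higher of the other classes in CPM were Tagln, Trrap, S100a6, Ylpm1, Slu7, Btbd1, Acta2, Alkbh5, Pdgfa and Kxd1. Tagln, an actin-binding protein of smooth muscle, had the largest such difference, 0.33 on the log2(CPM + 1) scale, with 84.8 CPM against 66.0 and 67.3. Acta2, smooth muscle actin, was at 85.2 CPM, against 73.9 and 75.1. Genes of the smooth muscle list were detected together (3 or more of 4) in 13 of 722 droplets (1.80%), 6 of 1179 ependymal-only (0.509%) and 319 of 22973 endothelial-only droplets (1.39%). Below the lower class were, after Rn18s-rs5, Mir6236, Lars2, 2610001J05Rik, Mrps26, Wdr61, Dld, Psmb7, Chtop and Cfl2. Lars2, a mitochondrial leucyl-tRNA synthetase, was at 249 CPM, against 310 and 295.

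Pericyte genes came with the endothelial profile. At least 3 of 10 pericyte genes were detected in 153 of 722 droplets with both profiles (21.2%, 18.3 to 24.4), 3962 endothelial-only droplets (17.2%, 16.8 to 17.7) and 20 ependymal-only droplets (1.70%, 1.04 to 2.61), at median depths of 14057, 7136 and 7093 UMIs. The summed pericyte list was at 1011, 1737 and 206 CPM. Rgs5, a pericyte regulator of G-protein signalling, was at 511 CPM, against 868 in endothelial-only and 54.8 in ependymal-only droplets. The part of pericyte transcripts in the results was not tested beyond leaving out these droplets, which moved the cilia list to 50.5% and the endothelial list to 52.6% of their single-class levels. Vtn, the matrix protein vitronectin, was at 290 CPM, against 504 and 105, Ndufa4l2 at 49.3, against 82.0 and 16.6, and Higd1b at 41.5, against 67.7 and 7.19. All 4 thus lay between the other classes. Transcripts of other cells of the cord were also present. At least 1 UMI of the oligodendrocyte list was found in 5.12% of droplets with both profiles, 4.24% of ependymal-only and 2.42% of endothelial-only droplets, of the fibroblast list in 28.5%, 25.2% and 7.08%, and of the neuron list in 8.31%, 6.53% and 3.03%, at the depths given above. Col1a2, a collagen, was at 21.4 CPM, against 39.7 in ependymal-only and 7.94 in endothelial-only droplets. At least 3 genes of the oligodendrocyte, microglia and leukocyte, or neuron list were found in 0 of 722 droplets, which allows a share of up to 0.416%. Ptprc, which encodes CD45, had no UMI in any of them. The fibroblast list passed the same limit in 6 droplets (0.831%).

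To describe the vessel segment, the UMIs of each segment's genes were set against the pan-endothelial UMIs of the same droplets, which leaves out most of the added ependymal RNA. Genes whose level in ependymal-only droplets was over 10% of that in endothelial-only droplets were left out, a choice made after the values had been seen. The genes kept can still hold some RNA of the ependymal side. Kdr, for example, was at 30.3 CPM in ependymal-only and 498 in endothelial-only droplets. The lists kept 10 arterial, 7 capillary and 12 venous genes. Among those left out, the phospholipid transfer protein gene Pltp was at 2560 CPM, against 1325 in ependymal-only and 3384 in endothelial-only droplets, Stmn2 at 148, against 79.8 and 197, and the venous transcription factor Nr2f2 at 78.9, against 87.8 and 59.8. With all droplets kept, those with both profiles carried all segments in nearly the proportions of endothelial-only droplets. This did not hold without the droplets called by Scrublet, a doublet caller. The quotients to endothelial-only droplets were then 0.855 (0.822 to 0.889) for arterial and 0.768 (0.731 to 0.805) for venous genes.

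Arterial genes gave 117 UMIs per 1000 pan-endothelial UMIs in both classes, a quotient of 1.001 (0.9799 to 1.022). Sox17, the arterial transcription factor, was at 31.8 per 1000, against 32.8 (quotient 0.971, 0.932 to 1.01). Mgp, an inhibitor of vessel calcification, was at 23.4, against 23.2, and Gkn3, an arterial marker of brain vessels, at 18.05, against 16.63 (quotient 1.09, 1.03 to 1.15). Bmx was at 5.27 against 5.45, and the Notch ligand Dll4 at 5.25 against 5.53. Of these genes, the interval excludes 1 for Gkn3 alone.

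Capillary genes gave 554 UMIs per 1000, against 572 in endothelial-only droplets, a quotient of 0.969 (0.960 to 0.978). The chemokine Cxcl12 was at 223, against 241 (quotient 0.929, 0.915 to 0.943), and the thyroid hormone and organic anion transporter Slco1c1 at 105, against 110 (0.954, 0.933 to 0.976). The carbonic anhydrase Car4 was at 91.1, against 87.3 (1.04, 1.02 to 1.07), and Mfsd2a, the lipid transporter of the barrier, at 22.7, against 23.3 (0.975, 0.929 to 1.02). The list's genes thus differed in direction. Cxcl12 and Slco1c1, both below 1, hold 17057 and 8007 of its 42314 UMIs. The list's direction depends on the processing, with a quotient of 1.06 (1.04 to 1.08) without Scrublet calls, which mark likely doublets, and of 1.102 (1.095 to 1.109) with all listed genes.

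Venous genes gave 83.7 UMIs per 1000, against 83.6, a quotient of 1.0015 (0.977 to 1.027). Tmem252 was at 21.2, against 19.9 (1.07, 1.02 to 1.12), and the amino acid transporter Slc38a5 at 18.7, against 18.5 (1.01, 0.958 to 1.06). Vwf, the clotting factor of larger vessels, was at 9.69, against 10.0 (0.966, 0.896 to 1.04). The adhesion molecules of the vein wall, Vcam1 and Icam1, were at 0.971 and 1.004 of their endothelial-only values. Lrg1, of activated venules, was at 0.440 (0.264 to 0.690), on 19 UMIs, and Sele had 0 UMIs in droplets with both profiles and 177 in the much larger endothelial-only class. Plvap and Esm1, genes of fenestrated and tip endothelium, had 4 and 0 UMIs in the 722 droplets.

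Each droplet with enough segment UMIs was also given a leading segment. When each droplet was thinned to 10 segment UMIs and given the segment with the largest excess over endothelial-only proportions, arterial genes led in 202 of 715 droplets (28.3%, 24.98 to 31.71), capillary genes in 330 (46.2%, 42.5 to 49.9) and venous genes in 183 (25.6%, 22.4 to 29.0). In endothelial-only droplets the shares were 28.7%, 48.1% and 23.2% of 22933. Each share in endothelial-only droplets lay within the interval of the droplets with both profiles. The call is a range and not a cell type, since in 13.0% of the droplets the runner-up segment reached 80% or more of the leading one. Drawing 10 UMIs from a single shared mixture would also spread the calls over the segments. The shares thus do not show that single droplets differ in segment, and how far drawing alone goes was not tested.

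Interferon-induced genes, which serve antiviral defence, gave 126 UMIs per 1000 pan-endothelial UMIs, against 118 in endothelial-only droplets, a quotient of 1.06 (1.04 to 1.09). Isg15, a ubiquitin-like modifier, was at 46.5, against 42.8 (1.09, 1.05 to 1.12), and the transcription factor Irf7 at 16.0, against 14.3 (1.12, 1.06 to 1.19). Ifit1 was at 19.2, against 17.7 (1.09, 1.03 to 1.15), and the antiviral enzyme Rsad2 at 13.3, against 12.1 (1.102, 1.034 to 1.173). The GTPase gene Iigp1 was lower, at 0.877 (0.812 to 0.945). At least 3 of the 10 listed genes were detected in 70.2% of droplets with both profiles, 73.2% of endothelial-only and 0.594% of ependymal-only droplets.

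To describe the ependymal subtype, UMIs of regional genes were set against the cilia UMIs of the same droplets, leaving out genes whose endothelial-only level was over 10% of the ependymal-only level. Left out were, for example, the guidance cue Ntn1, at 25.9 CPM, against 33.9 in ependymal-only and 14.6 in endothelial-only droplets, Apoe, at 2081 CPM, against 3412 and 1243, and Spock2, at 1364 CPM, against 55.5 and 2476. The droplets with both profiles were compared with ependymal-only droplets of their own library and of the traced library. For ventral and Ucma genes they stood near those of their own library and far from the traced ones.

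Ventral genes (Foxa1, Foxa2 and Sulf1), which include regulators of the floor plate, gave 2.54 UMIs per 1000 cilia UMIs, against 2.53 in non-traced ependymal-only droplets, a quotient of 1.004 (0.806 to 1.25). In traced ependymal-only droplets they gave 0.305, so that droplets with both profiles were 8.34-fold higher (6.62 to 10.5). With all listed ventral genes, those present in endothelial-only droplets included, the quotients were 1.37 (1.21 to 1.56) and 4.92 (4.39 to 5.50). Sulf1, an enzyme that edits heparan sulfate, was at 1.575, against 1.504 and 0.196, and Foxa1 at 0.911, against 0.974 and 0.0973. Both lay close to the non-traced value. Foxa2 rests on 3 UMIs. Foxa1 was near 0 in endothelial-only droplets, at 0.0191 CPM.

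The list named lateral here holds Pax6, Nkx6-1, Irx3, Irx5 and Sp8, homeobox and zinc finger factors of the neural tube. It gave 50.9 UMIs per 1000, against 50.3 in non-traced (quotient 1.01, 0.964 to 1.06) and 45.5 in traced ependymal-only droplets (1.12, 1.07 to 1.16). Nkx6-1 was at 24.5, against 23.9 and 18.2, and Pax6 at 11.05, against 11.53 and 12.56. Nkx6-1 held 1292 of the list's 2680 UMIs. Its quotient to the traced library was 1.35 (1.27 to 1.43), while that of Pax6 was 0.879 (0.807 to 0.957). The list's genes thus differed in direction. Irx5 was at 8.37, against 8.44 and 8.15, and Irx3 at 6.49, against 6.02 and 6.15. Against the traced library the list's direction depends on the denominator, since with the 10 ependymal genes of the rule it was at 0.907.

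The dorsal list could be read only from Lmx1b and Pax3, because Zic2, Zeb1, Msx1 and Zic1 had higher levels in endothelial-only than in ependymal-only droplets. Zic2, for example, was at 154 CPM in endothelial-only and 2.25 CPM in ependymal-only droplets. Lmx1b and Pax3 together gave 34 UMIs in droplets with both profiles, or 0.645 per 1000, against 0.444 in non-traced (quotient 1.45, 0.895 to 2.35) and 0.0495 in traced ependymal-only droplets (13.0, 7.75 to 22.1).

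Ucma, which encodes a secreted matrix protein, was at 10.8 UMIs per 1000 cilia UMIs, against 12.5 in non-traced (quotient 0.868, 0.784 to 0.961) and 1.20 in traced ependymal-only droplets (9.04, 8.09 to 10.1). Gpr37l1, a glial G-protein-coupled receptor, was at 8.77, against 10.1 (0.868, 0.775 to 0.972) and 2.64 (3.32, 2.98 to 3.68). Both were thus somewhat lower than in ependymal-only droplets of the same library and well above the traced level. Pvalb, which encodes the calcium buffer parvalbumin, was at 4.73, against 5.15 and 3.05. Anxa8, a membrane-binding annexin, was at 0.683, against 0.400 and 0.846, on 36 UMIs. Kbtbd11, listed with Ucma but present in all classes, was at 88.1 CPM, against 141 in ependymal-only and 42.8 in endothelial-only droplets. With all genes listed with Ucma, the quotient to non-traced ependymal-only droplets reversed from 0.868 to 2.05.

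**Figure D4:**
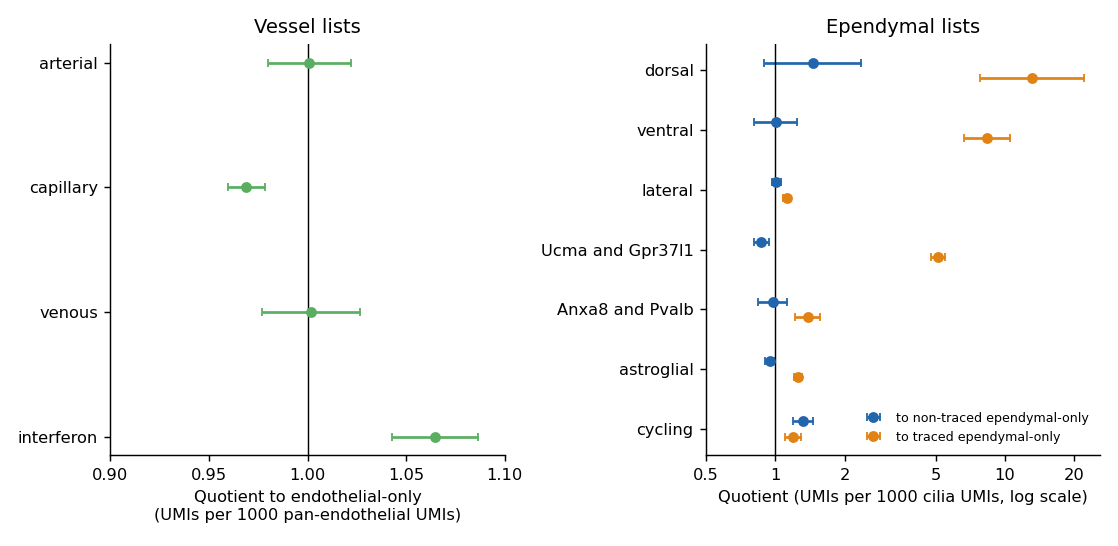
Left, UMIs of vessel lists per 1000 pan-endothelial UMIs in droplets with both profiles, as a quotient to endothelial-only droplets; right, UMIs of ependymal lists per 1000 cilia UMIs, as a quotient to ependymal-only droplets of the non-traced (blue) or traced (orange) library on a log axis; bars are 95% exact intervals for counting error. The vessel quotients lie between 0.969 and 1.06, and the ventral list lies at 1.004 against the non-traced and at 8.34 against the traced droplets.

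Astroglial genes gave 47.2 UMIs per 1000 cilia UMIs, against 49.9 in non-traced (quotient 0.946, 0.901 to 0.994) and 37.7 in traced ependymal-only droplets (1.25, 1.20 to 1.31). Aqp4, the water channel of glial endfeet, was at 12.7, against 14.5 and 8.51, and the glutamate transporter Slc1a3 at 24.2, against 23.1 and 21.8. At least 3 astroglial genes were detected in 422 of 722 droplets with both profiles (58.4%), 63.4% of ependymal-only and 0.662% of endothelial-only droplets. The glycolytic enzyme Aldoc was at 9.19 per 1000, against 10.8 (0.854, 0.764 to 0.953) and 6.47. Gja1, which encodes the gap junction protein connexin 43, was at 185 CPM, against 367 in ependymal-only and 50.3 in endothelial-only droplets. Of the genes tied to neural progenitors, Sox2 was at 103, against 92.1 (quotient 1.11, 1.08 to 1.15) in non-traced and 69.5 (1.48, 1.43 to 1.52) in traced ependymal-only droplets. Sox9 was at 91.0, against 73.2 (1.24, 1.20 to 1.29) and 41.1 (2.21, 2.15 to 2.28). Vim and Hes1, present in both other classes, were at 1749 and 650 CPM, against 1822 and 499 in ependymal-only and 1585 and 878 in endothelial-only droplets. Mt3, a metallothionein, was at 1216 per 1000 cilia UMIs, against 1361 (0.893, 0.885 to 0.902) in non-traced and 1010 (1.20, 1.19 to 1.21) in traced ependymal-only droplets. The 6 cell cycle genes kept (Mki67, Top2a, Pbk, Cenpf, Ccnb2 and Tpx2) gave 12.4, against 9.42 in non-traced (1.32, 1.19 to 1.46) and 10.4 in traced ependymal-only droplets (1.19, 1.0999 to 1.294). Against the 10 ependymal genes of the rule, the quotient to the traced droplets was 0.969 (0.893 to 1.05), so that its direction depends on the denominator. Tpx2 and Cenpf held 250 and 226 of the 655 UMIs. At least 3 of the 12 listed cell cycle genes were seen in 8 of 722 droplets with both profiles (1.11%) and 9 of 1179 ependymal-only droplets (0.763%). In traced ependymal-only droplets they were seen in 85 of 4745 (1.79%), at a median of 8568 UMIs. When droplets were thinned to 30 cilia UMIs, a UMI of the 6 kept genes was present in 17.5% (14.6 to 20.6). The shares were 15.3% in non-traced and 18.1% in traced ependymal-only droplets. Droplet by droplet, those with both profiles thus did not stand above the traced ones.

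Ventral genes and Ucma also stood above the traced library droplet by droplet. This was read at a fixed depth of 30 cilia UMIs, which 641 of the 722 reached, in 1 random draw of UMIs. A ventral UMI was present in 7.49% (5.57 to 9.81), against 5.77% (4.48 to 7.30) of 1126 non-traced and 0.723% (0.501 to 1.01) of 4705 traced ependymal-only droplets. A lateral UMI was present in 71.1%, against 71.6% and 71.6%. Ucma was present in 18.3% (15.3 to 21.5), against 18.5% and 2.19%, and Pvalb in 10.6% (8.33 to 13.3), against 11.5% and 6.33%. The smaller pooled differences of Ucma alone, below the non-traced value, and of lateral genes, above the traced value, were thus not seen at this depth. A UMI of Ucma or Gpr37l1 was present in 29.8% (26.3 to 33.5), against 35.0% (32.2 to 37.9) and 9.22%. This list was thus lower than in the non-traced droplets, with overlapping intervals. Shares of droplets with any lateral UMI may also miss a difference as small as the pooled one. Without thinning, the ventral shares were 12.6%, 12.6% and 2.49%. With thinning to 30 cilia UMIs, a UMI of both a ventral and a lateral gene was found in 4.37%, against 3.29% and 0.404%.

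**Figure D5:**
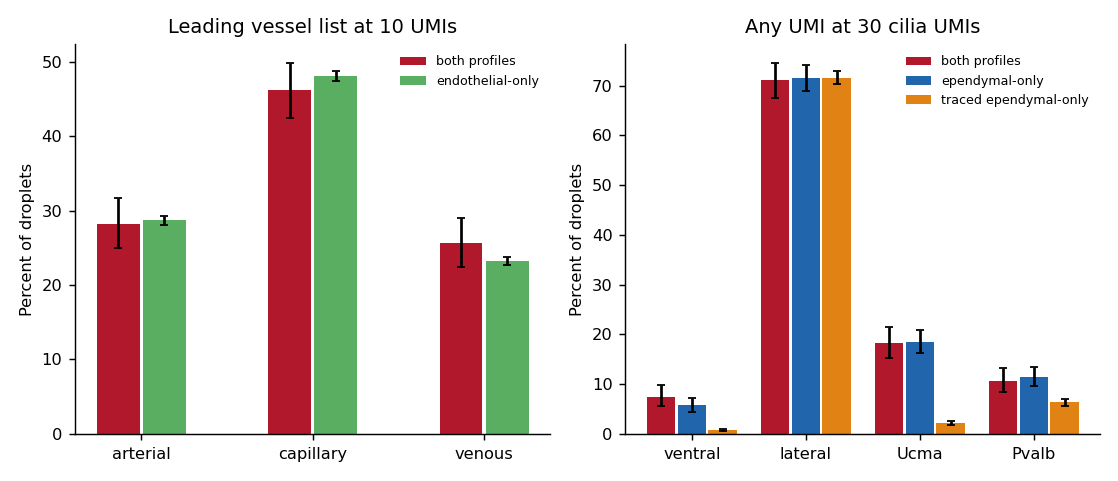
Left, percent of droplets led by arterial, capillary or venous genes at 10 segment UMIs, in 715 droplets with both profiles and 22933 endothelial-only droplets; right, percent with a UMI of the ventral list, the lateral list, Ucma or Pvalb at 30 cilia UMIs, in 641 both-profile, 1126 non-traced and 4705 traced ependymal-only droplets; bars are 95% exact binomial intervals. Ventral shares are 7.49% and 5.77% in the non-traced classes and 0.723% in the traced class.

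Ventral and Ucma transcripts were found beside every leading segment. A ventral UMI was found in 21 of the 202 droplets led by arterial genes (10.4%, 6.55 to 15.5), 47 of the 330 led by capillary genes (14.2%, 10.7 to 18.5) and 23 of the 183 led by venous genes (12.6%, 8.14 to 18.3). Ucma was found in 26.7%, 23.6% and 24.0%. The intervals of the segments overlap for both, so that no difference could be told at this number of droplets. The leading segment also rests in part on the draw of UMIs.

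The sorting marker followed the endothelial side. Prom1 was at 190 CPM in droplets with both profiles, 26.6 in ependymal-only and 327 in endothelial-only droplets, and had a UMI in 79.8%, 16.5% and 83.2% of them. The tracing reporter did not set these droplets apart. The tdTomato-WPRE row was at 68.1 CPM (63.3 to 73.1), against 72.4 in ependymal-only and 66.1 in endothelial-only droplets of the library and 318 in traced ependymal-only droplets. At 1000 UMIs per droplet, 6.23% (4.58 to 8.25) had a tdTomato-WPRE UMI, against 7.38% and 6.24%, and 27.3% of traced ependymal-only droplets. Without thinning the shares were 59.3%, 41.1%, 40.2% and 88.7%. At equal depth the share did not exceed that of endothelial-only droplets from cells sorted as tdTomato-negative, and it is not read as expression of the reporter. Clec9a had a UMI in 0 of 722 droplets, where 3 counts would be a share of 0.416%. Both Clec9a alleles of these mice carry Cre, and the paper counted mice of this genotype as Clec9a-deficient. The row still held counts in mice of this genotype. It had a UMI in 0 of 1179 ependymal-only, 20 of 22973 endothelial-only and 30 of 4745 traced ependymal-only droplets. The 0 is not read as a result about the droplets with both profiles, and absence could not be told at this depth.

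A doublet caller marked many, but not all, of these droplets. Scrublet, which scores droplets against simulated sums of pairs, called 368 of 722 (51.0%), against 9 of 1179 ependymal-only (0.763%) and 1762 of 22973 endothelial-only droplets (7.67%). Over the library it called 2170 droplets (8.54%), where 20.3% were expected from the number of droplets, and in the traced library none. The 368 called droplets had a median of 15121 UMIs, an ependymal percentage of 35.8% and an endothelial percentage of 62.9%. The other 354 had a median of 13416 UMIs, with 60.2% and 42.7%. Called droplets thus leaned to the endothelial and uncalled droplets to the ependymal side. With called droplets left out of every class, the cilia list was at 61.1% and the endothelial list at 44.2% of their single-class levels, and the segment quotients were 0.855 for arterial, 1.06 for capillary and 0.768 for venous genes. Whether a droplet held 1 cell or more was not tested.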

How the data were processed

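Single-cell RNA-seq (10x Chromium 3′ kit) was performed by the authors on 1 library of CD133+ non-traced and 1 of CD133+ DNGR-1 traced cells. The deposited tables hold UMI counts per gene and droplet. Per the labels and the study's methods, they were made with Cell Ranger 3.0.2 (STAR 2.5.1b) on the mm10 transcriptome with reporter rows added, without normalisation. Genes with near-identical copies may have lost or split reads at that step. No doublet step is named in the study's methods, and droplets were kept here.

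Counts were summed over the droplets of each class and expressed as CPM. Differences are on the log2(CPM + 1) scale, which understates those of low genes. Genes were compared from 50 CPM in any class. Intervals are exact at the 95% level (Poisson, Clopper-Pearson, and conditional binomial for quotients), and cover counting error only. Where nothing was counted, 3 counts set the upper limit. UMIs per droplet ranged from 1011 to 70509 in the non-traced library. Scrublet (scanpy 1.11.5) was run per library with 0.8% doublets expected per 1000 droplets. Thinning drew UMIs at random with a fixed seed. Python 3.11.15, numpy 2.4.6, scipy 1.17.1 and pandas 2.3.3 were used. The calculation was tested on simulated data with known changes. Coordinates are from GENCODE on GRCm38.

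Named genes were taken from the 6 markers of the label, the 4 highest of each list by level in the droplets with both profiles, and the 10 farthest above and below both other classes; the reporter poly(A) rows and some of the others, mostly low genes of lists for other cell types, are not printed, and other list genes were named after their values were seen. Some listed genes are not reported here, and the lists are given without them. Members and gene lists were chosen with earlier results of these data known, and no p-values are given. Alternatives covered the limits of the rule, mitochondrial and doublet filters, class definitions, scaling, low-count filter, pseudocount, denominators and gene lists. The dorsal, Anxa8 and Pvalb, astroglial, progenitor and interferon quotients were not recomputed under them.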

Additional observations from a re-analysis of the deposited data

Results flagged for a closer look

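Further rows of the reporter construct, which enter no comparison above, were above the level of 3 UMIs (0.272 CPM) in the droplets with both profiles. They were read at 1290 CPM for SV40 poly(A), 375 CPM for the intron, 202 CPM for bGH poly(A), 37.7 CPM for NeoR/KanR and 17.6 CPM for PGK poly(A), and the left and right Rosa26 arms had 0.544 and 0.454 CPM, from 6 and 5 UMIs. Their levels in the other classes are not given here, so these values are not read as particular to the droplets with both profiles.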

How the results depend on the processing

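Of 156 values recomputed under 19 alternatives (22 results), 111 stayed within the main interval, or within 1.5 times the main count. Another 40 moved and 5 reversed. The cause was not tested. A reversal was counted only where the main interval excluded 1, so quotients near 1 could cross it and stay among the 111. The ventral quotient to non-traced droplets, for example, went from 1.004 to 0.888 without Scrublet calls. The number of droplets with both profiles moved only without Scrublet calls, to 354. That setting also gave a median of 13416 UMIs, 2 genes above both classes by 1.5-fold, 61.1% for the cilia and 44.2% for the endothelial list, segment quotients of 0.855 (arterial), 1.06 (capillary, reversed) and 0.768 (venous), arterial, capillary and venous genes leading in 24.1%, 55.9% and 20.1%, quotients to non-traced and traced ependymal-only droplets of 0.765 and 4.41 (Ucma and Gpr37l1) and 1.59 and 1.44 (cell cycle), and 61.3 CPM of tdTomato-WPRE. With endothelial-only droplets free of ependymal rule genes the arterial quotient was 1.02. The mean over droplets gave 49.4% for the cilia and 54.0% for the endothelial list, and a total without mitochondrial, Gm42418 and reporter rows 45.1% for the cilia list. From 10 CPM, 9348 genes lay between both classes and 10137 within 1.25-fold of the sum. These counts come from a larger set of genes, whose number is not given here, so they cannot be read as shares. Against the 8 endothelial rule genes, the arterial and capillary quotients were 1.02 and 0.990. Against the 10 ependymal rule genes, the lateral list was at 1.098 (non-traced) and 0.907 (traced, reversed), Ucma and Gpr37l1 at 0.943 and 4.14, and cell cycle genes at 0.969 (traced, reversed). With all listed genes, an alternative chosen after seeing the data, the segment quotients were 1.05 (arterial), 1.102 (capillary, reversed) and 1.07 (venous), arterial, capillary and venous genes led in 24.0%, 40.1% and 35.9%, and the ventral list was at 1.37 and 4.92, the Ucma list at 2.05 (reversed) and 7.68 and the cell cycle list at 1.33 (traced); these lists then hold genes of the other profile. Without droplets with 3 or more pericyte genes, also chosen after seeing the data, the median was 13346 UMIs, the cilia and endothelial lists were at 50.5% and 52.6%, the venous quotient was 0.967 and the Ucma quotient to the traced library 4.68. No paired analysis was possible because each group is 1 library. Depth limits the dorsal list, Foxa2, Anxa8, Lrg1 and Sele, which rest on few UMIs.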

Other observations

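The 12 immediate early genes summed to 17035 CPM in droplets with both profiles, 9073 in ependymal-only and 22390 in endothelial-only droplets, and 11 of 12 lay strictly between, beside 92.4% of all genes tested. Fos was at 3581 CPM, against 3266 and 3531, Jun at 3126, against 1315 and 4510, Jund at 2804, against 1157 and 3788, and Junb at 2130, against 902 and 3068. All 7 heat shock genes lay strictly between, a count near the same background, with the chaperone Hsp90aa1 at 2368 CPM, against 4531 and 506, and Hspb1 at 1866, against 355 and 3092. Hspa8 was at 1260 CPM, against 1087 and 1378, and Hspa1a at 1023, against 257 and 1841. At least 1 hemoglobin UMI was found in 124 of 722 droplets with both profiles (17.2%) and 3789 of 22973 endothelial-only droplets (16.5%), and 100 or more in 4 and 85 of them. The hemoglobin list had at most 968 UMIs in a droplet with both profiles and at most 12459 in an endothelial-only droplet, with medians of 0 in both.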
